A study of Mus musculus with 12 samples.

Results

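Mouse macrophages that had taken up corpses of melanoma cells overexpressing STC1 were compared with macrophages that had taken up control corpses, across all expressed genes. The comparison used 8 of the 12 libraries of the series, chosen by their titles: 4 with STC1-overexpressing (STC1OE) corpses and 4 with control corpses. The other 4 libraries, macrophages alone, entered the fits to estimate the spread and served as a reference level. Each difference was also read separately in replicates 1 and 2 and in replicates 3 and 4, which share no library.

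The macrophages came from C57BL/6 bone marrow, were cultured in 20 ng/ml of the growth factor M-CSF and were collected for use on day 7. Corpses of B16-F10, a mouse melanoma line of C57BL/6 origin, were added at a stated ratio of 1 to 5, read here as 5 corpses per macrophage, and those left unbound were washed off after 20 h. STC1OE corpses came from B16-F10 cells labelled as overexpressing STC1; the construct's promoter and species of sequence, whether the line was 1 clone, and the way the cells were killed are not given in the sources used here. Macrophages alone received no corpses. Messenger RNA was sequenced in bulk, so each library mixes macrophage RNA with whatever corpse RNA remained.

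Macrophages that engulf dying cells, a process called efferocytosis, digest the cargo in lysosomes and must handle its lipid, iron and heme. Stanniocalcin 1, the product of Stc1, is a glycoprotein found in secreted and intracellular pools. In macrophages the transcription factor HIF-1 drives genes of glucose uptake, glycolysis and lactate export when oxygen or its sensing hydroxylases are limiting, and NRF2 drives genes that make glutathione and NADPH and detoxify heme and peroxides.

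The libraries held 31192463 to 39981074 counts assigned to genes in the 8 corpse libraries and 28488441 at the least in macrophages alone. A gene with no count could still have reached 0.0750 to 0.105 CPM. CPM are counts scaled by library size, with TMM factors except for Stc1 and these floors. Intervals and such floors cover counting error only. Csf1r and the other 14 macrophage identity genes summed to 16151 to 17813 CPM with control corpses and to 16119 to 17215 CPM with STC1OE corpses. In the STC1OE group replicates 1 and 2 resembled each other, as did replicates 3 and 4 (chi-square per degree of freedom 4.26 and 2.81), while pairs across gave 11.2 to 17.1. With control corpses the pairs within gave 7.03 and 2.73 and those across 5.46 to 9.11. Macrophages alone had the likeness too, with 3.12 and 2.88 within and 6.00 to 13.5 across. The series' design text calls the samples independent experiments, and no label gives a reason for this likeness, so that p-values over 4 against 4 libraries measure only the spread among these libraries. The share of reads that did not align was 14.6%, 14.4%, 17.8% and 17.5% in STC1OE replicates 1 to 4 against 10.8% to 11.5% with control corpses and 11.4% to 14.0% in macrophages alone. All 4 STC1OE libraries lay above all others in that share, and replicates 3 and 4 lay highest. Its part in the differences that follow was not tested.

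**Figure D1:**
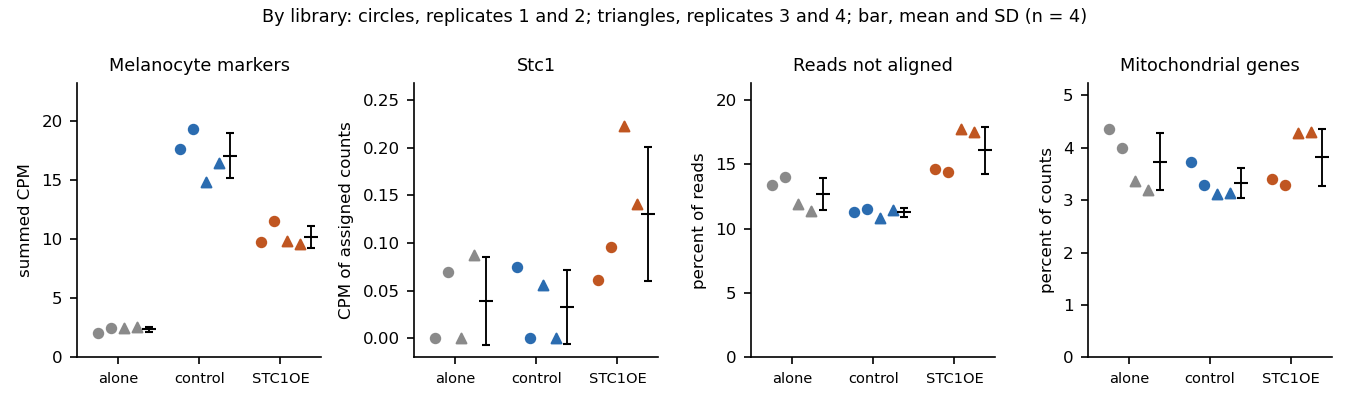
Values by library for the summed level of 18 melanocyte markers that are below 1 CPM in macrophages alone (CPM), Stc1 (CPM of assigned counts), reads that did not align (percent of reads) and mitochondrially encoded genes (percent of counts). Points are libraries and bars are mean and SD (n = 4); marker sums are lower in all STC1OE libraries than in the control corpse libraries, unaligned reads are higher, and mitochondrial shares are highest in STC1OE replicates 3 and 4 among the corpse libraries.

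Mouse Stc1 was barely detected. It (chromosome 14, 69029238 to 69041804, GRCm38) had 2, 3, 7 and 5 counts in STC1OE replicates 1 to 4, against 3, 0, 2 and 0 with control corpses and 0, 2, 0 and 3 in macrophages alone. The groups overlapped at the low end, since control replicate 1 held more counts than STC1OE replicate 1. Relative to its depth, the STC1OE group held 3.68 times as many counts as the control group, with a 95% counting interval from 1.30 to 12.7. An exact two-sided permutation test over 70 arrangements gave p = 0.0571 (adjusted 0.0686 over 6 such tests of library values) for 0.130 ± 0.0700 against 0.0328 ± 0.0387 CPM of assigned counts (SD, n = 4). With the construct's species unstated, whether counts on mouse Stc1 measure the transgene is not known, and they check the labels only weakly if at all.

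Transcripts of pigment-cell genes, which come with the melanoma corpses, were lower with STC1OE corpses. Of 22 melanocyte markers listed, 14 were expressed highly enough to test, 6 of these fell, 1 rose (3.33% of all genes tested were called higher and 2.12% lower) and none of the 22 was at 0 in all corpse libraries. The melanin-making enzyme gene Tyrp1 (chromosome 4, 80834123 to 80851719) had levels of 4.43, 4.49, 3.14 and 4.32 CPM in control replicates 1 to 4 and of 0.987, 1.01, 0.861 and 1.33 CPM in STC1OE replicates 1 to 4. All STC1OE libraries lay far below all control libraries, and macrophages alone had 0.0313 ± 0.0233 CPM. The log2 fold change of Tyrp1 was −1.96 ± 0.16 (standard error; adjusted p = 4.22e-09, edgeR's quasi-likelihood test with Benjamini-Hochberg adjustment), with −2.16 in replicates 1 and 2 and −1.75 in replicates 3 and 4. Dct, another enzyme of melanin synthesis, fell by 1.89 and Pmel, a protein of the pigment granule's fibrils, by 0.79 on the log2 scale. Tyr, Mlana and Slc45a2 also fell, from means of 0.395, 0.473 and 0.499 CPM with control corpses. Ednrb, an endothelin receptor of melanoblasts that other cells express too, went the other way, from 3.18 ± 0.350 to 4.27 ± 0.375 CPM (0.43 ± 0.13, adjusted p = 0.0405, edgeR), and Mitf, which macrophages also use, was at 109.5 ± 2.22 and 109 ± 1.64 CPM and was not called. The Ednrb call was lost without control replicate 1, 3 or 4 or without STC1OE replicate 2, 3 or 4.

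Summed over the 18 markers below 1 CPM in macrophages alone, a subset chosen after the data were seen, the level was 17.0 ± 1.90 CPM with control corpses, 10.2 ± 0.929 CPM with STC1OE corpses and 2.38 ± 0.210 CPM in macrophages alone (SD, n = 4). The corpse groups did not overlap, with 14.8 to 19.3 against 9.54 to 11.5 CPM. The exact two-sided permutation p was 0.0286, the smallest that 4 against 4 libraries can give (adjusted 0.0571 over 6 tests). Over all 22 markers, most of whose summed level is Mitf, the sums were 133 to 138 and 128 to 130.3 CPM, also without overlap (a difference of −7.58 CPM, or −11.9 CPM without TMM factors). In macrophages alone that sum was higher, at 171 to 178 CPM, so it is not a measure of corpse RNA. Fewer corpse cells in a library and less RNA of these genes per corpse cannot be told apart in bulk samples. With the sum over 22 markers as a covariate 7 genes were called higher and 6 lower in place of 546 and 347, while the median log2 fold changes of lists described next were 0.21 for glycolysis, 0.23 for hypoxia targets and 0.22 for NRF2 genes (0.20, 0.23 and 0.18 without it). Because that sum separated the corpse groups completely, it cannot be told apart from the corpse type. The part of corpse RNA in the differences that follow was not tested.

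Across the genome the difference between corpse types was broad and small. Of 16406 genes tested, 546 were higher (3.33%) and 347 lower (2.12%) with STC1OE corpses at an adjusted p below 0.05. A fold of 1.5 was passed by only 9 genes called higher and 37 called lower, and the median called gene differed 1.12-fold. The common biological coefficient of variation was 4.53%. The 4 libraries of each group did not overlap for 1757 genes (10.7%), and the median log2 fold change of all genes was −0.0064. These counts leaned on single libraries: 1.68% of tested genes were higher and 1.15% lower without STC1OE replicate 3, 2.04% and 0.874% without STC1OE replicate 4, 1.96% and 1.22% without control replicate 3, and 2.26% and 1.11% without control replicate 1.

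Replicates 3 and 4 gave most of the calls. Within replicates 1 and 2, 94 genes were higher (0.573%) and 51 lower (0.311%), whereas within replicates 3 and 4 the counts were 636 (3.88%) and 243 (1.48%). These counts share the spread of all 12 libraries; fitted from the 6 libraries of each pair by themselves they were 27 and 6 in replicates 1 and 2 and 1298 and 627 in replicates 3 and 4. In the other pair, 456 of the 636 (71.7%) and 209 of the 243 (86.0%) had the same direction, where 47.5% and 52.5% of all genes had it. Of the 94 and 51 genes called in replicates 1 and 2, 92 (97.9%) and 42 (82.4%) had the same direction in replicates 3 and 4, against 48.7% and 51.3% of all genes. Called with all 4 replicates and in each pair by itself were 70 higher genes (0.427%) and 16 lower genes (0.0975%). The log2 fold changes of the pairs correlated at a Pearson r of 0.164 over the 16406 genes tested and of 0.344 over the 8015 above 10 CPM, a description over genes that share their libraries' depth and scaling. The 70 were led by Egln3, Acod1, Ak4, Cdkn1c and Slc16a3 among coding genes of at least 2 CPM, and the 16 by Tyrp1, Dct, Dtl, Hist1h3c and Slfn9.

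**Figure D2:**
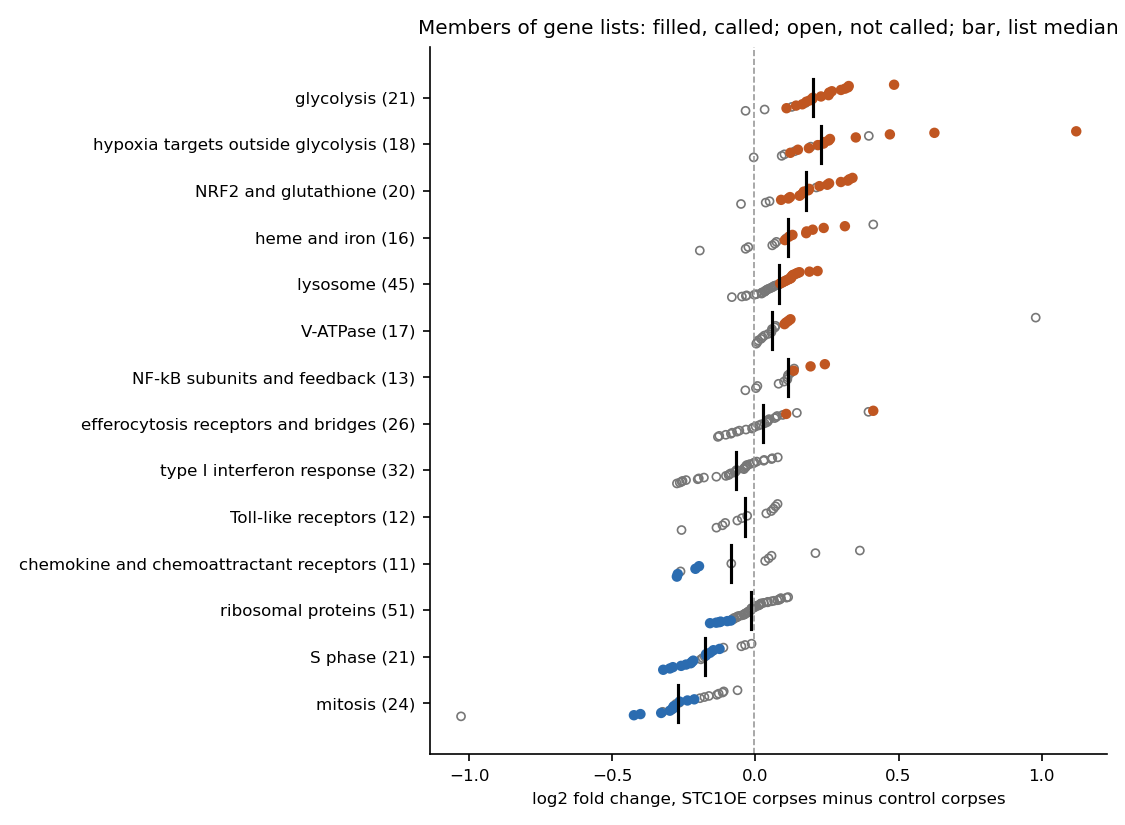
Log2 fold change of STC1OE over control corpses (x axis) for each tested member of 14 gene lists (y axis, number of tested members in brackets). Filled points passed edgeR's test at an adjusted p below 0.05, open points did not, black bars are list medians and the dashed line is the median of all genes; glycolysis, hypoxia, NRF2 and heme lists lie to the right, and S phase and mitosis lists to the left.

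Glycolysis had the largest share of members called higher among the 43 gene lists. Of 21 genes tested, 17 rose and 0 fell, against 3.33% and 2.12% of all genes, with a median log2 fold change of 0.20 (0.22 in replicates 1 and 2 and 0.20 in replicates 3 and 4). In 18 of the 21 the groups did not overlap, against 10.7% of all genes. Within replicates 1 and 2 alone 13 rose, against 0.573% of all genes, and within replicates 3 and 4 alone 14, against 3.88%. The count stayed at 17 with each of the 12 libraries left out in turn.

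Slc16a3, which exports lactate, stood at 82.6, 67.3, 77.4 and 79.3 CPM in control replicates 1 to 4 and at 111, 101, 108 and 110.2 CPM in STC1OE replicates 1 to 4. Every STC1OE library was above every control library, and macrophages alone had 73.7 ± 1.71 CPM (SD, n = 4, as for each such mean). The log2 fold change was 0.48 ± 0.050 (adjusted p = 4.33e-05, edgeR's quasi-likelihood test with Benjamini-Hochberg adjustment), with 0.49 and 0.47 in the pairs. Ldha, which turns pyruvate into that lactate, measured 742, 657, 706 and 695 CPM with control corpses and 888, 828, 893 and 895 CPM with STC1OE corpses. Its groups did not overlap either, although control replicate 1 was the highest and STC1OE replicate 2 the lowest of their groups. Ldha rose by 0.32 ± 0.032 on the log2 scale (adjusted p = 1.22e-06, edgeR). Pfkl, the liver-type subunit of phosphofructokinase at the committed step of glycolysis, rose by 0.33 ± 0.030 from 123 ± 5.18 CPM. Eno1, an enolase, rose by 0.31 ± 0.025 from 1057 ± 30.6 CPM, Aldoa, an aldolase, by 0.27 ± 0.027 from 1154 ± 21.8 CPM, and Pkm, pyruvate kinase, by 0.20 ± 0.025 from 1993 ± 47.6 CPM (largest adjusted p of the 3 7.12e-06, edgeR). Eno1 has a near-identical copy, and Gapdh, which also rose, has many, and reads that aligned equally well to several places were not counted. The glucose transporter Slc2a1, chosen after its value was seen, rose by 0.30 ± 0.053. The 4 members that were not called were Pfkfb4, Pfkp, Aldoc and Pfkm, at −0.035, 0.032, 0.13 and 0.17 on the log2 scale.

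Hypoxia targets outside glycolysis held Egln3, which had the largest rise among coding genes of at least 2 CPM called overall and in each pair. Of 18 such targets tested 12 rose and 0 fell, against 3.33% and 2.12% of all genes. The median was 0.23, with 0.20 and 0.25 in the pairs. Within the pairs 5 and 10 rose, against 0.573% and 3.88% of all genes. Egln3, a prolyl hydroxylase that marks HIF subunits for destruction and is itself a HIF target (chromosome 12, 54178981 to 54203860), stood at 2.94, 2.60, 2.47 and 2.64 CPM in control and 5.46, 6.13, 5.60 and 6.00 CPM in STC1OE replicates 1 to 4. The groups were far apart, and macrophages alone had 2.39 ± 0.474 CPM. The log2 fold change was 1.12 ± 0.11 (adjusted p = 1.71e-07, edgeR's quasi-likelihood test with Benjamini-Hochberg adjustment), with 1.06 in replicates 1 and 2 and 1.19 in replicates 3 and 4. P4ha2, a collagen prolyl hydroxylase, measured 13.6, 13.7, 13.7 and 14.9 CPM and 17.99, 16.8, 18.8 and 17.7 CPM, without overlap, and rose by 0.35 ± 0.060. Bnip3, a mitophagy receptor, rose by 0.47 ± 0.085 from 5.66 ± 0.602 CPM. Ddit4, an inhibitor of mTORC1, rose by 0.63 ± 0.15 from only 1.49 ± 0.225 CPM, a call that was lost without STC1OE replicate 3 (adjusted p above 0.05, edgeR) and without control replicate 3. Mxi1, a MYC antagonist, was the member whose difference depended on the replicate pair, at −0.10 in replicates 1 and 2 and 0.28 in replicates 3 and 4 (interaction adjusted p = 0.0476, edgeR).

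Stretches of sequence just before the start sites of 5 genes are shown, picked by hand from the hypoxia, glycolysis, NRF2 and S phase lists. Only a window that held a match could be shown, and the first such window where a gene had several. A match in each was therefore fixed by the choice. The stretches are the 250 bases before a RefSeq start site in build GRCm38.p6, read 5′ to 3′ on the gene's strand. Capitals are matches to the letters searched for, on either strand. For Egln3 (chr12:54203875-54204124, minus strand), Slc16a3 (chr11:120948817-120949066, plus strand) and Ldha (chr7:46845554-46845803, plus strand) these are ACGTG, the core of the hypoxia response element, which is also part of the E-box CACGTG. For Gclm (chr3:122245307-122245556, plus strand) they are TGACNNNGC, the core of the antioxidant response element, matched on the opposite strand, and for Mcm7 (chr5:138171884-138172133, minus strand) TTTCCCGC, an E2F motif, also on the opposite strand.
Egln3: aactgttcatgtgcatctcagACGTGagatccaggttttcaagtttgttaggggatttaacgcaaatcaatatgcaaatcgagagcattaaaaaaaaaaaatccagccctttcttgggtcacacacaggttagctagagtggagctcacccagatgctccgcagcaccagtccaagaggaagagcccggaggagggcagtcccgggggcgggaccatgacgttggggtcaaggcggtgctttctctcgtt
Slc16a3: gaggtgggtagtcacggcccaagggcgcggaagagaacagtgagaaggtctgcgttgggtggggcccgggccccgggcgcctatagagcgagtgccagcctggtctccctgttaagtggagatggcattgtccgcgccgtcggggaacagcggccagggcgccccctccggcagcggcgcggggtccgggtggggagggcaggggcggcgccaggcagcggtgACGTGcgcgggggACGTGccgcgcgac
Ldha: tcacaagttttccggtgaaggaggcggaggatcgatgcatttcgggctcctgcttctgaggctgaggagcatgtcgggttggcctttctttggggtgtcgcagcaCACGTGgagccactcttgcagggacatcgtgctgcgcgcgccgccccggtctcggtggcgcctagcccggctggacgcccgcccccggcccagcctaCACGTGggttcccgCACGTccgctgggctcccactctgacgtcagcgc
Gclm: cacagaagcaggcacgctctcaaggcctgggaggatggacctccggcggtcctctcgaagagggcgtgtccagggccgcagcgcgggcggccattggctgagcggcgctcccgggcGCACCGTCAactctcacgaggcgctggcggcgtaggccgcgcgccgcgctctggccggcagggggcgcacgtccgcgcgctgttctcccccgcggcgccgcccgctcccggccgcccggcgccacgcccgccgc
Mcm7: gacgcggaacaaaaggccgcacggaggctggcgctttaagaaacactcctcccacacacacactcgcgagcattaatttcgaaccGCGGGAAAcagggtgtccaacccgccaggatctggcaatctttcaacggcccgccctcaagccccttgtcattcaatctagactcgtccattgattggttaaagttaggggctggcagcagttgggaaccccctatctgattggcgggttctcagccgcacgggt
Counted back from the start site, the capitals begin at base 229 in Egln3, at bases 27 and 14 in Slc16a3, in 3 runs (5 matches over both strands) down to base 34 in Ldha, at base 134 in Gclm and at base 165 in Mcm7. ACGTG stood in a window of this length in 11 of the 21 glycolysis genes and 11 of 15 hypoxia genes with a promoter entry, against 24.6% of the 10353 tested genes with one, in 3 of 18 NRF2 genes, 15 of 37 lysosome genes, 6 of 17 S phase genes and 7 of 20 mitosis genes. TGACNNNGC stood in 6 of 18 NRF2 genes, against 13.9% of all, in 4 of 15 hypoxia genes, 3 of 12 heme and iron genes and 9 of 37 lysosome genes. Of other lists, TGACNNNGC stood in 5 of 23 type I interferon genes and 4 of 20 mitosis genes. It stood in 3 of 17 S phase genes and 2 of 21 glycolysis genes. An E2F motif (TTTCGCGC, TTTGGCGC or TTTCCCGC) stood in 6 of 17 S phase genes, against 3.32% of all. Of the mitosis genes 1 of 20 held such a motif. A match describes these letters and is not evidence of binding.

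**Figure D3:**
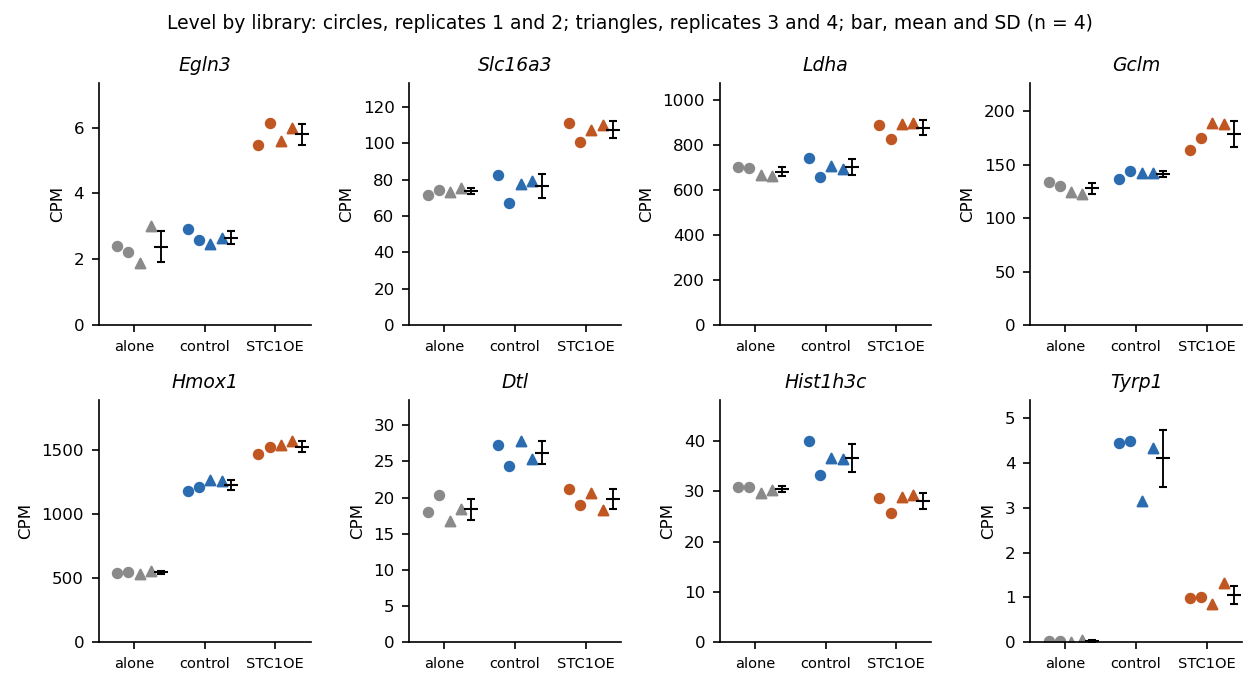
Level in CPM (y axis, from 0) of 8 genes in each library of the 3 groups (x axis), with mean and SD (n = 4). Egln3, Slc16a3, Ldha, Gclm and Hmox1 are higher in all 4 STC1OE libraries than in all 4 control corpse libraries, and Dtl, Hist1h3c and Tyrp1 are lower; circles and triangles separate replicates 1 and 2 from 3 and 4.

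Most genes of the NRF2 and glutathione program rose. Of 20 tested 15 rose and 0 fell, against 3.33% and 2.12% of all genes (median 0.18 with all replicates and in each pair). In 16 the groups did not overlap, against 10.7% of all genes. Within the pairs 11 and 12 rose, against 0.573% and 3.88% of all genes. Gclm, the modifier subunit of the enzyme that starts glutathione synthesis, stood at 137, 144, 142 and 142 CPM with control corpses and 163, 175, 189 and 188 CPM with STC1OE corpses. All STC1OE libraries were higher, with replicates 3 and 4 the highest. The log2 fold change was 0.34 ± 0.039 (adjusted p = 3.41e-05, edgeR's quasi-likelihood test with Benjamini-Hochberg adjustment), with 0.27 and 0.41 in the pairs. Cat, catalase, rose by 0.32 ± 0.036 from 369 ± 14.2 CPM, and Gstm1, a glutathione transferase with close paralogs, by 0.33 ± 0.047 from 223 ± 4.68 CPM. Pgd, which makes NADPH in the pentose phosphate pathway, measured 488, 498, 499 and 509 CPM and 581, 580.4, 607 and 604 CPM without overlap and rose by 0.25 ± 0.024 (adjusted p = 4.91e-08, edgeR). Nqo1, a standard NRF2 target, was not called, at −0.18 and 0.067 in the pairs, nor was Nfe2l2, which encodes NRF2 itself, at 0.036 ± 0.027.

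Of 16 heme and iron genes 8 rose and 0 fell, against 3.33% and 2.12% of all genes (median 0.11). The count was 5 without control replicate 3. Within the pairs 3 and 5 rose, against 0.573% and 3.88% of all genes. Hmox1, heme oxygenase (chromosome 8, 75093621 to 75100589), measured 1184, 1214, 1267 and 1256 CPM with control and 1469, 1528, 1539.7 and 1574 CPM with STC1OE corpses. Both groups were tight and apart, and macrophages alone had 546 ± 10.6 CPM. Hmox1 rose by 0.31 ± 0.026 (adjusted p = 4.22e-09, edgeR's quasi-likelihood test with Benjamini-Hochberg adjustment), with 0.32 and 0.30 in the pairs. Blvrb, a biliverdin reductase, rose by 0.20 ± 0.031. Fth1, the ferritin heavy chain, stood at 11520.0, 11609.6, 11320.1 and 11432 CPM and 12309.8, 12767, 14324 and 14726 CPM. Its rise of 0.24 ± 0.056 rested on replicates 3 and 4 (0.35 against 0.12 in replicates 1 and 2, interaction adjusted p = 0.0234, edgeR), and the call was lost without STC1OE replicate 3, any control replicate or replicate 3 of macrophages alone.

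Many lysosomal genes were higher by a small amount. Of 45 tested 17 rose, against 3.33% of all genes, and 0 fell (median 0.083, with 40 of 45 above 0 against 47.9% of all genes). In replicates 1 and 2 alone none was called and the median was 0.064, and in replicates 3 and 4 alone 13 were called and the median was 0.096. Of all genes 0.573% were called higher in replicates 1 and 2 and 3.88% in replicates 3 and 4. Gaa, which degrades glycogen, rose by 0.19 ± 0.035 from 181 ± 8.52 CPM, and Gla, an alpha-galactosidase, by 0.15 ± 0.026 from 238 ± 7.20 CPM (adjusted p = 3.76e-04, edgeR). Cd68, a lysosomal glycoprotein of macrophages, measured 1537, 1504, 1459 and 1519 CPM and 1649, 1629, 1817 and 1901 CPM and rose by 0.22 ± 0.040. No STC1OE library overlapped the control range of Cd68, but replicates 3 and 4 rose more than replicates 1 and 2 (0.32 and 0.11, interaction adjusted p = 0.0442, edgeR). In the V-ATPase, the pump that acidifies lysosomes, 4 of 17 subunit genes rose and 0 fell (2 without control replicate 3). They included Atp6v1a at 0.11 ± 0.025, Atp6v0d1 at 0.12 ± 0.028 and Atp6v1g1 at 0.12 ± 0.029. The last 2 lost the call without control replicate 3 (adjusted p above 0.05, edgeR), Atp6v0d1 also without control replicate 1 and Atp6v1g1 also without STC1OE replicate 3.

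Receptors and bridging molecules for dying cells had 2 of 26 members higher and 0 lower, against 3.33% and 2.12% of all genes, and a median of 0.026. Itgb3, the integrin subunit that pairs with alpha V to bind bridging proteins on dying cells, stood at 24.3, 28.4, 24.3 and 27.1 CPM with control and 30.3, 36.5, 34.5 and 36.9 CPM with STC1OE corpses. Its groups did not overlap and its rise was 0.41 ± 0.060 (adjusted p = 3.98e-04, edgeR's quasi-likelihood test with Benjamini-Hochberg adjustment), with 0.35 and 0.48 in the pairs. Cd300a, an inhibitory receptor for phosphatidylserine, rose by 0.11 ± 0.026, a call lost without control replicate 3. Among 9 genes of the calreticulin and CD47 axis 1 rose and 0 fell. Calr, the chaperone that serves as an eat-me signal when it reaches the cell surface, measured 1760.0, 1791, 1796 and 1814 CPM and 1957, 1937, 1991 and 1949 CPM. Its 4 STC1OE libraries lay above the 4 control libraries by a small margin (0.13 ± 0.023, 0.13 and 0.13 in the pairs, adjusted p = 8.51e-04, edgeR). Of 20 endoplasmic reticulum chaperones and unfolded protein response genes 1 rose and 0 fell. It was P4hb, a disulfide isomerase, at 0.089 ± 0.023, a call lost without STC1OE replicate 4 or control replicate 3.

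Genes of DNA replication and division were lower with STC1OE corpses. Of 21 S phase genes 13 fell and 0 rose (median −0.18), against 2.12% and 3.33% of all genes. All 21 lay below 0 in both pairs (medians −0.22 and −0.17), as did 52.5% of all genes in replicates 1 and 2 and 51.3% in replicates 3 and 4. Calls within the pairs were 2 and 4, where 0.311% and 1.48% of all genes were called lower. Without control replicate 1 the list had 8. Of 24 mitosis genes 10 fell and 0 rose (median −0.27; −0.26 and −0.24 in the pairs, where 0 and 4 were called). Their count was 4 without STC1OE replicate 2, STC1OE replicate 4 or control replicate 3, 5 without control replicate 1, and 6 without STC1OE replicate 3 or control replicate 4.

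Dtl, a gene outside both lists that directs destruction of the licensing factor Cdt1 during replication, stood at 27.2, 24.4, 27.9 and 25.3 CPM with control corpses and 21.2, 18.9, 20.7 and 18.3 CPM with STC1OE corpses. All STC1OE libraries lay below all control libraries, and macrophages alone had 18.4 ± 1.49 CPM. Dtl fell by 0.41 ± 0.057 on the log2 scale (adjusted p = 4.79e-05, edgeR's quasi-likelihood test with Benjamini-Hochberg adjustment), with −0.36 and −0.45 in the pairs. Ccne2, a cyclin that starts S phase, fell by 0.32 ± 0.065 from 12.9 ± 0.393 CPM, and Pole, the catalytic subunit of a replicative polymerase, by 0.30 ± 0.050 from 25.7 ± 1.42 CPM. Mcm7, a subunit of the replicative helicase, was named after its value was seen, to go with the sequence shown for it, and fell by 0.22 ± 0.035 from 61.8 ± 2.31 CPM. Tyms, thymidylate synthase, fell by 0.30, but lost the call without STC1OE replicate 4 or control replicate 1 (adjusted p above 0.05, edgeR). The histone gene Hist1h3c, one of many near-identical H3 genes, measured 40.1, 33.3, 36.6 and 36.5 CPM and 28.7, 25.8, 28.8 and 29.3 CPM. Its groups were apart, and it fell by 0.38 ± 0.047. Cenpf, a kinetochore protein of dividing cells, fell by 0.40 ± 0.082 from 7.48 ± 0.728 CPM, below the 10.2 ± 0.765 CPM of macrophages alone. Kntc1, of the spindle checkpoint, fell by 0.34 ± 0.057 and Fignl1, of recombination repair, by 0.28 ± 0.050. The CDK inhibitor Cdkn1c rose: 7.51, 8.58, 8.15 and 7.91 CPM with control against 11.02, 12.03, 11.5 and 12.3 CPM with STC1OE corpses, without overlap (0.54 ± 0.074, adjusted p = 1.90e-05, edgeR).

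Some receptors for inflammatory chemokines fell. In a list of 11 chemoattractant receptors 4 fell and 0 rose, against 2.12% and 3.33% of all genes. Those 4 included Ccr1, Ccr2 and Ccr3, and the count was 2 without STC1OE replicate 4. The list's median was −0.085, but 0.028 in replicates 1 and 2, where 6 of the 11 lay above 0. It was −0.22 in replicates 3 and 4, where 7 lay below 0. Within the pairs 1 and 3 were called lower, against 0.311% and 1.48% of all genes. Ccr3 stood at 26.9, 23.6, 25.9 and 26.1 CPM with control and 23.7, 22.05, 22.1 and 21.01 CPM with STC1OE corpses, and macrophages alone had 42.2 ± 1.59 CPM. The corpse groups overlapped by control replicate 2 and STC1OE replicate 1. Ccr2 fell by 0.27 ± 0.076 from 7.99 ± 0.366 CPM and Ccr3 by 0.21 ± 0.046 (adjusted p = 0.00571, edgeR's quasi-likelihood test with Benjamini-Hochberg adjustment). Both lost the call without STC1OE replicate 4, Ccr2 also without STC1OE replicate 2 or 3 or control replicate 2, 3 or 4. Ccr1, chosen after its value was seen, fell by 0.20 ± 0.032. The receptors C5ar1, C3ar1 and Cxcr4 were not called, at 0.056, 0.046 and 0.034.

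Lists of inflammatory and antigen-presenting genes had at most 3 called members each, to be read against 3.33% of all genes called higher and 2.12% lower. Among 22 cytokine and chemokine genes 1 rose and 1 fell. Tgfb1, a suppressive cytokine, measured 489, 492, 489 and 503 CPM and 522, 532, 559.7 and 580.5 CPM, without overlap, and rose by 0.15 ± 0.028 (0.10 and 0.20 in the pairs, adjusted p = 8.87e-04, edgeR). Il18 fell by 0.36 ± 0.11 from 4.09 ± 0.320 CPM, with an adjusted p of 0.0494 (edgeR) that was above 0.05 when any 1 of STC1OE replicates 1, 2 and 4, control replicates 1 to 3 or replicates 2 and 4 of macrophages alone was left out. Of 13 NF-kB subunit and feedback genes 3 rose and 0 fell, or 1 without STC1OE replicate 3 or 4 or control replicate 3 or 4. The subunit gene Nfkb2 rose by 0.19 ± 0.032 (0.21 and 0.18 in the pairs). The MHC class II list had 1 of 10 higher and 0 lower: H2-Eb1, a beta chain, stood at 14.3, 14.2, 13.8 and 12.9 CPM and 16.8, 16.2, 16.1 and 16.6 CPM and rose by 0.25 ± 0.053, its groups apart but far under the 35.99 ± 2.34 CPM of macrophages alone. The MHC class I list had 1 of 19 higher (H2-D1, 0.11 ± 0.029, lost without STC1OE replicate 2 or 3 or control replicate 1 or 3), and 0 lower. None of 12 Toll-like receptors and none of 14 genes of alternative activation was called by edgeR or DESeq2 with all 4 replicates (2 and 3 had an unadjusted p below 0.05). Mrc1, a mannose receptor of alternatively activated cells, stood at 498 ± 4.38 and 493 ± 2.47 CPM.

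Interferon-stimulated genes were not called, and the sign of their median differed between the pairs. None of 32 type I interferon response genes was called in either direction by edgeR with all 4 replicates (4 had an unadjusted p below 0.05, and DESeq2 called 1 lower), with a median of −0.067 that was 0.014 without control replicate 3. In replicates 1 and 2 the median was 0.026 with 18 genes above 0. In replicates 3 and 4 it was −0.18 with 29 of 32 below 0 and 2 called lower, against 1.48% of all genes. Relative to the mean of the control corpse libraries, the list's median stood at −0.12, −0.021, 0.17 and −0.061 in control replicates 1 to 4 and at 0.054, −0.15, 0.031 and −0.18 in STC1OE replicates 1 to 4. The corpse groups overlapped. Parp14, one of the most abundant members, measured 241, 262, 278 and 249 CPM and 274, 239, 264 and 239 CPM. The 10 interferon gamma targets tested were likewise not called by edgeR or DESeq2 (1 had an unadjusted p below 0.05), with medians of 0.037 and −0.20 in the pairs. No gene of either list was called by edgeR's test of the difference between the pairs.

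**Figure D4:**
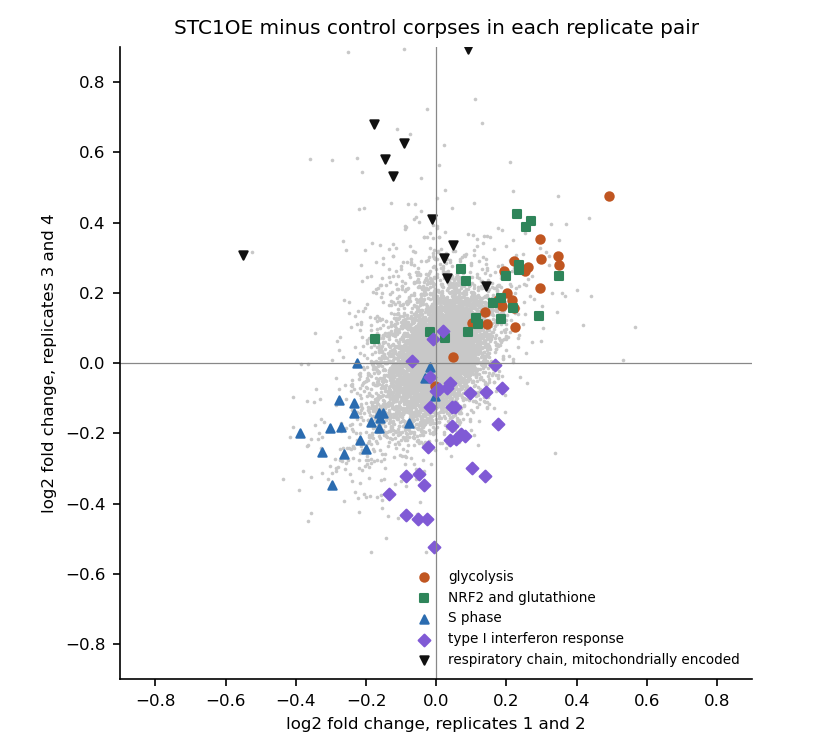
Log2 fold change of STC1OE over control corpses in replicates 1 and 2 (x axis) and in replicates 3 and 4 (y axis) for the 8015 genes above 10 CPM (grey; 10 lie outside the axes) and for members of 5 lists. Of 21 glycolysis genes 20 lie above 0 on each axis, of 20 NRF2 genes 18 and 20 do, and all 21 S phase genes lie below 0 on both, while type I interferon genes and mitochondrially encoded genes spread mainly along the y axis, with mt-Nd6 outside the axes.

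Some differences were not the same in both pairs. The test of the difference between the pairs called 59 genes (0.36%), 58 of them (0.354% of all tested) higher in replicates 3 and 4. Gng5, a G protein subunit, had 44.6, 39.9, 36.6 and 37.7 CPM in control and 41.01, 39.5, 56.2 and 60.6 CPM in STC1OE replicates 1 to 4. STC1OE replicates 3 and 4 stood above every other corpse library, while replicates 1 and 2 lay within the control range (log2 fold change 0.65 and −0.074, interaction adjusted p = 5.65e-05, edgeR's quasi-likelihood test with Benjamini-Hochberg adjustment). Hnrnpul2, Hcfc1r1 and Nsrp1 had the same form, with −0.12, −0.22 and −0.30 in replicates 1 and 2 against 0.34, 0.59 and 0.58 in replicates 3 and 4. Macrophages alone differed by pair too, with Gng5 at 55.0, 49.9, 39.4 and 37.0 CPM in replicates 1 to 4. Nsrp1 stood there at 17.1, 16.7, 13.0 and 11.3 CPM. Hnrnpul2 and Hcfc1r1 were also higher in replicates 1 and 2 of macrophages alone than in replicates 3 and 4. Mt1, a metallothionein, was at 73.5, 70.3, 62.2 and 64.3 CPM and 77.5, 77.5, 87.1 and 86.5 CPM, which is a rise of 0.46 in replicates 3 and 4 and a difference of 0.11, not called, in replicates 1 and 2 (interaction adjusted p = 0.0052, edgeR). Mast4, a kinase gene, and Foxp3 were among the 4 coding genes with the smallest p for a lower difference in replicates 3 and 4, but neither was called (interaction adjusted p = 0.155 and 0.155, edgeR). Eif5b and Smc1a, chosen after their values were seen, were called in both pairs in opposite directions, at −0.18 and −0.26 in replicates 1 and 2 against 0.20 and 0.18 in replicates 3 and 4.

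Mitochondrially encoded mRNAs had values that differed by pair, but the test of the difference between pairs called 0 of 12. None of 12 was called by edgeR with all 4 replicates (3 had an unadjusted p below 0.05, and DESeq2 called 1 higher). Their median was −0.052 in replicates 1 and 2 and 0.47 in replicates 3 and 4. In replicates 3 and 4 alone 4 were called higher, against 3.88% of all genes. The share of counts on mitochondrial genes was 3.74%, 3.29%, 3.13% and 3.13% in control replicates 1 to 4 and 3.41%, 3.29%, 4.29% and 4.29% in STC1OE replicates 1 to 4. In macrophages alone it was 4.36%, 4.00%, 3.37% and 3.19% in replicates 1 to 4, with replicate 1 above every corpse library. STC1OE replicates 3 and 4 lay above the control range and replicates 1 and 2 within it, and an exact two-sided permutation test gave p = 0.20 for 3.32% ± 0.288 against 3.82% ± 0.548 (SD, n = 4). The same STC1OE replicates had the highest share of unaligned reads. Whether the genes that differed in replicates 3 and 4 alone moved with these shares was not tested. Nuclear genes of the respiratory chain had 0 of 32 called by edgeR (4 had an unadjusted p below 0.05, and DESeq2 called 1 higher) and a median of 0.032.

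**Figure D5:**
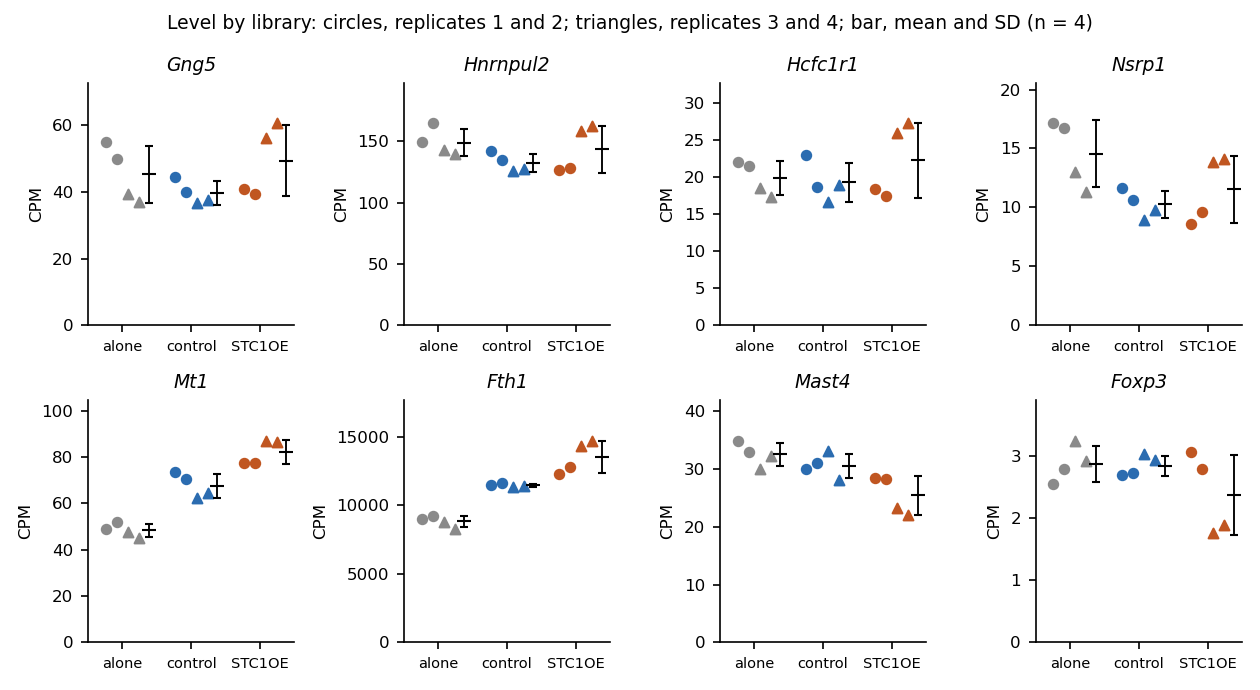
Level in CPM (y axis, from 0) of 8 genes by library in the 3 groups (x axis), with mean and SD (n = 4). Triangles (replicates 3 and 4) of the STC1OE group stand apart from its circles (replicates 1 and 2) for each gene shown: above them for Gng5, Hnrnpul2, Hcfc1r1, Nsrp1, Mt1 and Fth1, and below them for Mast4 and Foxp3.

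The remaining ranked genes were not in these groups. Acod1, which makes the antimicrobial metabolite itaconate, stood at 3.26, 4.03, 4.03 and 4.00 CPM with control and 5.83, 6.06, 7.12 and 5.26 CPM with STC1OE corpses. Its groups were apart, with macrophages alone lower at 1.85 ± 0.381 CPM, and it rose by 0.66 ± 0.12 (adjusted p = 5.31e-04, edgeR's quasi-likelihood test with Benjamini-Hochberg adjustment). Ak4, a mitochondrial adenylate kinase, measured 8.81, 6.14, 8.60 and 8.35 CPM and 14.4, 11.9, 11.8 and 11.9 CPM and rose by 0.64 ± 0.093. Control replicate 2 was low and STC1OE replicate 1 high for Ak4, and its rise was 0.80 in replicates 1 and 2 and 0.48 in replicates 3 and 4. Dio2, which activates thyroid hormone, rose by 0.42 ± 0.047 from 19.3 ± 1.13 CPM, Grhpr, a glyoxylate reductase, by 0.40 ± 0.068 from 7.86 ± 0.358 CPM, and Plpp3, a lipid phosphate phosphatase, by 0.38 ± 0.056 from 14.6 ± 0.305 CPM. Scd2, a fatty acid desaturase, was the only called member of 10 fatty acid synthesis genes, at 0.24 ± 0.028. Tmsb4x, an actin-sequestering peptide, had the largest fall in CPM among coding genes called overall and in each pair: 2258, 2090.1, 2148 and 2117 CPM against 1966, 1921, 1960.0 and 1892 CPM, without overlap and by only 0.15 ± 0.026 on the log2 scale. Slfn9 fell by 0.38 ± 0.049, Nfxl1 by 0.23 ± 0.035 and Zfc3h1 by 0.20 ± 0.033.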

How the data were processed

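The values are raw read counts per gene that the authors deposited, one table per library with 55604 gene identifiers, of which 54723 matched a symbol in the GENCODE vM21 annotation (GRCm38), the source of gene coordinates. The tools HISAT2, HTSeq and DESeq2 and the builds mm10 and GRCm38 are named, per the submitters' processing notes; versions, the annotation release and whether counting used strand are not given in the sources used here. Lines that name no gene (no feature, 10.6% to 14.7% of reads; ambiguous, 5.53% to 6.62%; low quality, 5.17% to 5.85%; not aligned, 10.8% to 17.8%; not unique, 5.74% to 7.03%) entered neither library sizes nor tests, so that reads that align equally well to near-identical genes are missing from those genes' counts.

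Groups came from the sample titles. Genes were kept with edgeR's filterByExpr (minimum count 10, minimum total 15) and scaled by TMM, and a quasi-likelihood model (edgeR 4.0.16, limma 3.58.1, R 4.3.3) was fitted to all 12 libraries with 3 group means; a fit with 6 means gave the values in replicates 1 and 2 and in replicates 3 and 4 and the test of their difference. The pairs' tests therefore share the spread estimated from all libraries. A gene was called at a Benjamini-Hochberg adjusted p below 0.05 over all genes tested. Library values were compared by exact two-sided permutation. The fit was tested on simulated counts. Python 3.11.15, pandas 2.3.3 and matplotlib 3.10.9 were used for summaries and plots. Alternatives were DESeq2 1.42.0, other scalings, no filter, a replicate block, a pair term, the corpse libraries alone, a test against 1.2-fold, a melanocyte covariate and each library left out.

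Named genes were ranked coding genes of at least 2 CPM called overall and in each pair (the 10 highest and lowest fold changes, the 4 smallest p-values and 4 largest differences in CPM per direction), up to 3 called members per list (or up to 2 abundant ones, as values), and the 4 smallest p-values per direction for the difference between pairs. Any other gene named was chosen after its values were seen. The gene lists, their members and the comparison itself were chosen with earlier results of these data known. Values of some genes of the lists are not reported here.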

Additional observations from a re-analysis of the deposited data

Results flagged for a closer look

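In groups of 4 libraries, 14 of 232 groups tested held a library far from the others; chance gives about 1 in 20 groups. Acod1 was low in control replicate 1 at 3.26 CPM, the other 3 lying at 4.00 to 4.03 CPM. Ak4 was low in control replicate 2 at 6.14 CPM (others 8.35 to 8.81) and high in STC1OE replicate 1 at 14.4 CPM (others 11.8 to 11.9). P4ha2 was high in control replicate 4 at 14.9 CPM (others 13.6 to 13.7). In control replicate 2, Pkm was low at 1922 CPM (others 2011 to 2021) and Dcstamp, a fusion protein of osteoclasts, was low at 10.2 CPM (others 11.4 to 11.6). In control replicate 3, Tyrp1 was low at 3.14 CPM (others 4.32 to 4.49) and Lgals3bp, a secreted glycoprotein, was high at 499.5 CPM (others 474 to 478). STC1OE replicate 1 was high for Pole at 22.8 CPM (others 20.0 to 20.4), Fignl1 at 17.4 CPM (others 16.2 to 16.4) and Nusap1, a spindle protein, at 3.49 CPM (others 3.34), and low for Gla at 256 CPM (others 266 to 268). STC1OE replicate 2 was low for Ldha at 828 CPM (others 888 to 895) and high for the sum of 18 melanocyte markers at 11.5 CPM (others 9.54 to 9.80). Outside the gene counts, the share of reads that did not align averaged 16.1% with STC1OE corpses, above the 10.8% to 11.5% with control corpses (exact two-sided permutation p = 0.0286, adjusted 0.0571 over 6 tests).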

How the results depend on the processing

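Against 546 higher and 347 lower genes, RLE scaling gave 681 and 317, upper quartile scaling 447 and 395, no filter 638 and 451, DESeq2 728 and 304 (4784 genes had no adjusted p, among them 5 of the 6 melanocyte genes called lower), the 8 corpse libraries alone 423 and 301, and a pair term 585 and 365. As shares of tested genes the 546 and 347 were 3.33% and 2.12%; tested against a fold of 1.2 they were 0.0122% and 0.0122% (2 genes each), and with the melanocyte sum as a covariate 0.0427% and 0.0366%. With a library left out the shares ran from 1.68% to 4.35% higher and from 0.874% to 2.83% lower. The replicate numbers were not shown to pair the libraries (same-number correlations −0.00967 to 0.319; 3 of 8 libraries correlated best with their own number); a replicate block gave 677 higher and 412 lower (4.13% and 2.51%). From the 6 libraries of each pair alone, replicates 1 and 2 gave 27 higher and 6 lower and replicates 3 and 4 gave 1298 and 627; each set estimates its spread from fewer libraries. The test between pairs gave 36 genes with RLE scaling and 33 from the corpse libraries alone, against 59. The mitochondrial share differed by −0.168 percentage points in replicates 1 and 2 and 1.16 in replicates 3 and 4, and by 0.340 to 0.675 with a library left out. The Stc1 difference ran from 0.0663 to 0.120 CPM with a library left out, with an exact permutation p of 0.0286 without STC1OE replicate 1 and of 0.0571 to 0.114 without any other. The difference in the sum of 22 melanocyte markers, reported as −7.58 CPM, ran from −8.52 to −6.98 CPM with a library left out, and was −11.9 CPM without TMM factors, −8.55 in replicates 1 and 2 and −6.61 in replicates 3 and 4. Of 79 named genes called, 52 kept the call with any library left out; glycolysis kept a count of 17 under each scaling, DESeq2 and left-out library, but had 2 with the melanocyte covariate and 0 tested against 1.2-fold. None of those 79 genes changed sign with another scaling, no filter, a replicate block or a pair term. Nor did any with the corpse libraries alone, a library left out or, where it gave an adjusted p, DESeq2. Their signs with the melanocyte covariate are not given here. The mitochondrial share did change sign, as given. So did medians of lists near 0, such as the interferon list without control replicate 3 (0.014 against −0.067). Where counts moved the cause was not tested. Low counts limit Stc1, Tyr, Mlana and Slc45a2.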

Other observations

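Amino acid and stress genes made a smaller group. In the ATF4 program, which supplies amino acids and tRNA synthetases under stress, 6 of 27 genes rose and 1 fell with STC1OE corpses (median 0.072), against 3.33% and 2.12% of all genes. Atf5, a transcription factor downstream of ATF4, rose by 0.28 ± 0.046 from 25.8 ± 2.07 CPM, and Sesn2, an inhibitor of mTORC1, by 0.22 ± 0.045 from 22.3 ± 0.767 CPM. The 1 was Psat1, of serine synthesis, at −0.16 ± 0.044, a call lost without STC1OE replicate 2, 3 or 4 or control replicate 1 or 3. Among genes chosen after their values were seen, Mif, a cytokine with many near-identical copies, rose by 0.31 ± 0.039, Gdf15, a stress-induced cytokine, by 0.23 ± 0.035, and Gys1, glycogen synthase, by 0.30 ± 0.041.

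In the ribosomal protein list 6 of 51 genes fell and 0 rose, against 2.12% and 3.33% of all genes, by at most 0.16 on the log2 scale, and the count was 2 without STC1OE replicate 4, 3 without control replicate 1 and 10 without control replicate 2. Of the macrophage identity list 2 of 15 rose and 3 fell, or 1 to 2 and 0 to 3 with a library left out. Aif1, an actin-binding protein of macrophages, fell by 0.24 ± 0.058 from 28.8 ± 0.454 CPM, a call lost without STC1OE replicate 4 or control replicate 1 or 3. In the cholesterol list 1 of 24 fell: Idi1, of isoprenoid synthesis, by 0.42 ± 0.12, lost in 5 of the 12 fits with a library left out. Of the tested markers of neutrophils (5), B cells (3), T and NK cells (1), dendritic cells (3), fibroblasts (4), mast cells and basophils (2) and erythroid cells (1), none was called by edgeR or DESeq2, and 1, the erythroid marker, had an unadjusted p below 0.05. Their sums with control and STC1OE corpses were 3.98 to 5.32 and 4.40 to 5.40 CPM for neutrophils, 4.65 to 5.47 and 4.44 to 4.74 CPM for B cells, 0.563 to 0.825 and 0.389 to 0.563 CPM for T and NK cells, 1.49 to 1.82 and 1.72 to 1.91 CPM for dendritic cells, 2.61 to 3.08 and 2.17 to 2.87 CPM for mast cells and basophils, 0.859 to 1.32 and 0.473 to 0.795 CPM for erythroid cells and 13.1 to 17.4 and 14.4 to 15.7 CPM for fibroblasts. Among the members of these lists, Ly6g, Gzma, Mcpt8, Fcer1a, Hbb-bs and Hba-a1 were at 0 in all 8 corpse libraries.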
